A study of Mus musculus with 36 samples.

Results

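The genes described here are 10 mRNAs of fatty acid synthesis: Acly, Acaca, Acacb, Fasn, Scd1, Scd2, Elovl6, Me1, Thrsp and Srebf1. They were chosen by name as the core enzymes of the pathway and its regulators, and all 10 are among the 24319 gene symbols of the deposited expression table. Polyadenylated RNA came from gastrocnemius, a fast calf muscle of the mouse. One genotype was wild type (WT), and in the other, Bmal1hep-/-, the clock gene Bmal1 was deleted in the liver only, so the muscle itself kept the gene by design and the deletion cannot be checked in these libraries. Muscle was taken at 6 points of the day, zeitgeber times (ZT) 0, 4, 8, 12, 16 and 20, and each of the 12 groups holds 3 biological replicates, 36 libraries in all. Age, sex, diet, feeding state and the Cre driver are not given in the labels. Each member is set beside Adipoq, the adipocyte hormone adiponectin, in the same libraries, because white fat cells make fatty acids and lie between and around muscle fibres.

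Fatty acid synthesis starts in the cytosol, where ATP citrate lyase (Acly) cuts citrate into acetyl-CoA and oxaloacetate. Acetyl-CoA carboxylase turns acetyl-CoA into malonyl-CoA: the form encoded by Acaca supplies the chain-building enzyme, and the form encoded by Acacb sits at the mitochondrial surface, where its malonyl-CoA inhibits the entry of fatty acids for oxidation and is the main form in skeletal muscle. Fatty acid synthase (Fasn) builds palmitate from malonyl-CoA with NADPH, part of which comes from malic enzyme (Me1). Elovl6 lengthens palmitate to stearate, and the stearoyl-CoA desaturases Scd1 and Scd2 put in the first double bond. Srebf1 encodes the transcription factor SREBP-1, which drives many of these genes in liver and fat, and Thrsp encodes Spot 14, a nuclear and cytosolic protein whose mRNA follows thyroid hormone and carbohydrate feeding and whose loss lowers lipogenesis in some tissues.

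The files hold no read totals, so only relative depths could be had, from the steps between low values. They ran from 57.9% to 100% of the deepest library, and the medians were 69.1% for WT and 73.8% for Bmal1hep-/-. A few libraries stood apart in mRNAs of other cell types. The summed level of 10 adipocyte markers ran from 284 to 545 FPKM in WT (median 411) and from 344 to 1886 in Bmal1hep-/- (median 471), and the 2 highest libraries, Bmal1hep-/- ZT4 replicate 1 and Bmal1hep-/- ZT20 replicate 3, reached 1886 and 1338 against 689 in the next. Of the 10 adipocyte markers 9 were above 0 in every library and Adrb3 was at 0 in 5. Of 3 brown adipocyte markers, Ucp1, which defines brown fat, was at 0 in 34 of 36. Cidea was above 0 in every library (median 0.435 FPKM, up to 2.73), and Elovl3 was at 0 in 2 (median 0.202, up to 2.56). Their summed level was at most 2.98 FPKM in WT and 2.83 in Bmal1hep-/-, the latter in ZT4 replicate 1. The summed level of 8 Schwann cell and nerve markers was highest, at 492 FPKM, in WT ZT12 replicate 1, and that of 8 hepatocyte markers, at 245 FPKM, in WT ZT8 replicate 3. Of the fast fibre markers, Myh4 was listed at 0 in 34 libraries and Acta1 in 1, while their summed level was at least 111093 FPKM in every library; such zeros can be failed estimates. The 6 libraries left out together in 1 alternative were those that stood apart in an earlier analysis of the table, namely WT ZT8 replicate 3 and, of Bmal1hep-/-, ZT4 replicate 1, ZT8 replicate 2, ZT12 replicate 2, ZT16 replicate 3 and ZT20 replicate 3. Because whole muscle was used, more cells of a type and more RNA per cell cannot be told apart in any of the results.

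The 10 mRNAs differed widely in level (FPKM, fragments scaled by transcript length and by library size, so that genes can be compared per length). Me1 was the highest, with a median of 137.5 FPKM over the 36 libraries (74.3 to 205), and Acacb followed with 57.3 (48.2 to 67.2). Srebf1 had a median of 30.7 FPKM (24.1 to 42.3) and Thrsp one of 19.3 (9.80 to 52.3). Me1, Acacb and Srebf1 kept this order in all 36 libraries. The genes of chain building itself were low, with medians of 5.52 FPKM for Fasn, 5.35 for Acly and 3.17 for Acaca. Fasn and Acly were not separated by their spread, since Fasn was the higher of the pair in 21 of 36 libraries, but Acly was above Acaca in all 36. Elovl6 was close to the limit of measurement: its median was 0.319 FPKM (0.161 to 1.33), it reached 1 FPKM in 2 libraries, and it lay under the filter on low values, so 9 of the 10 members were tested. A value that low rests on few fragments.

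Of the 2 acetyl-CoA carboxylases Acacb was the higher in every library, and of the 2 desaturases Scd1 was the higher in most. Acacb exceeded Acaca by a ratio of 14.5 to 21.8 in the 18 WT libraries (median 17.3) and of 5.18 to 26.2 in the 18 Bmal1hep-/- libraries (median 18.5), with the lowest ratio in Bmal1hep-/- ZT4 replicate 1. Scd1 had a median of 23.8 FPKM and Scd2 one of 11.5. At WT ZT0 they did not differ beyond their spread, with 18.1 ± 5.14 FPKM of Scd1 and 18.1 ± 3.72 FPKM of Scd2 (SD, n = 3). The ratio of Scd1 to Scd2 ran from 0.804 to 5.08 in WT (median 2.11, above 1 in 17 of 18 libraries) and from 0.872 to 20.9 in Bmal1hep-/- (median 2.58, above 1 in 16 of 18). In the GENCODE M21 transcripts, 2.97% of the 50-base words of Scd1 also occur in Scd2, so only a small part of their reads could be exchanged; the other desaturases Scd3 and Scd4 stayed at or under 0.166 and 0.131 FPKM.

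The members also differed in how steady they were. The coefficient of variation over 36 libraries was 7.34% for Acacb, 14.5% for Srebf1 and 16.0% for Me1, against 126% for Fasn and 138% for Scd1. Fasn ran from 3.49 to 8.95 FPKM in WT (median 5.32) and from 3.19 to 55.6 in Bmal1hep-/- (median 5.63). Scd1 ran from 10.3 to 54.998 FPKM in WT (median 23.6) and from 7.64 to 319 in Bmal1hep-/- (median 25.4). For both genes the medians of the genotypes lay close together while the highest Bmal1hep-/- values lay far above every WT value.

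**Figure D1:**
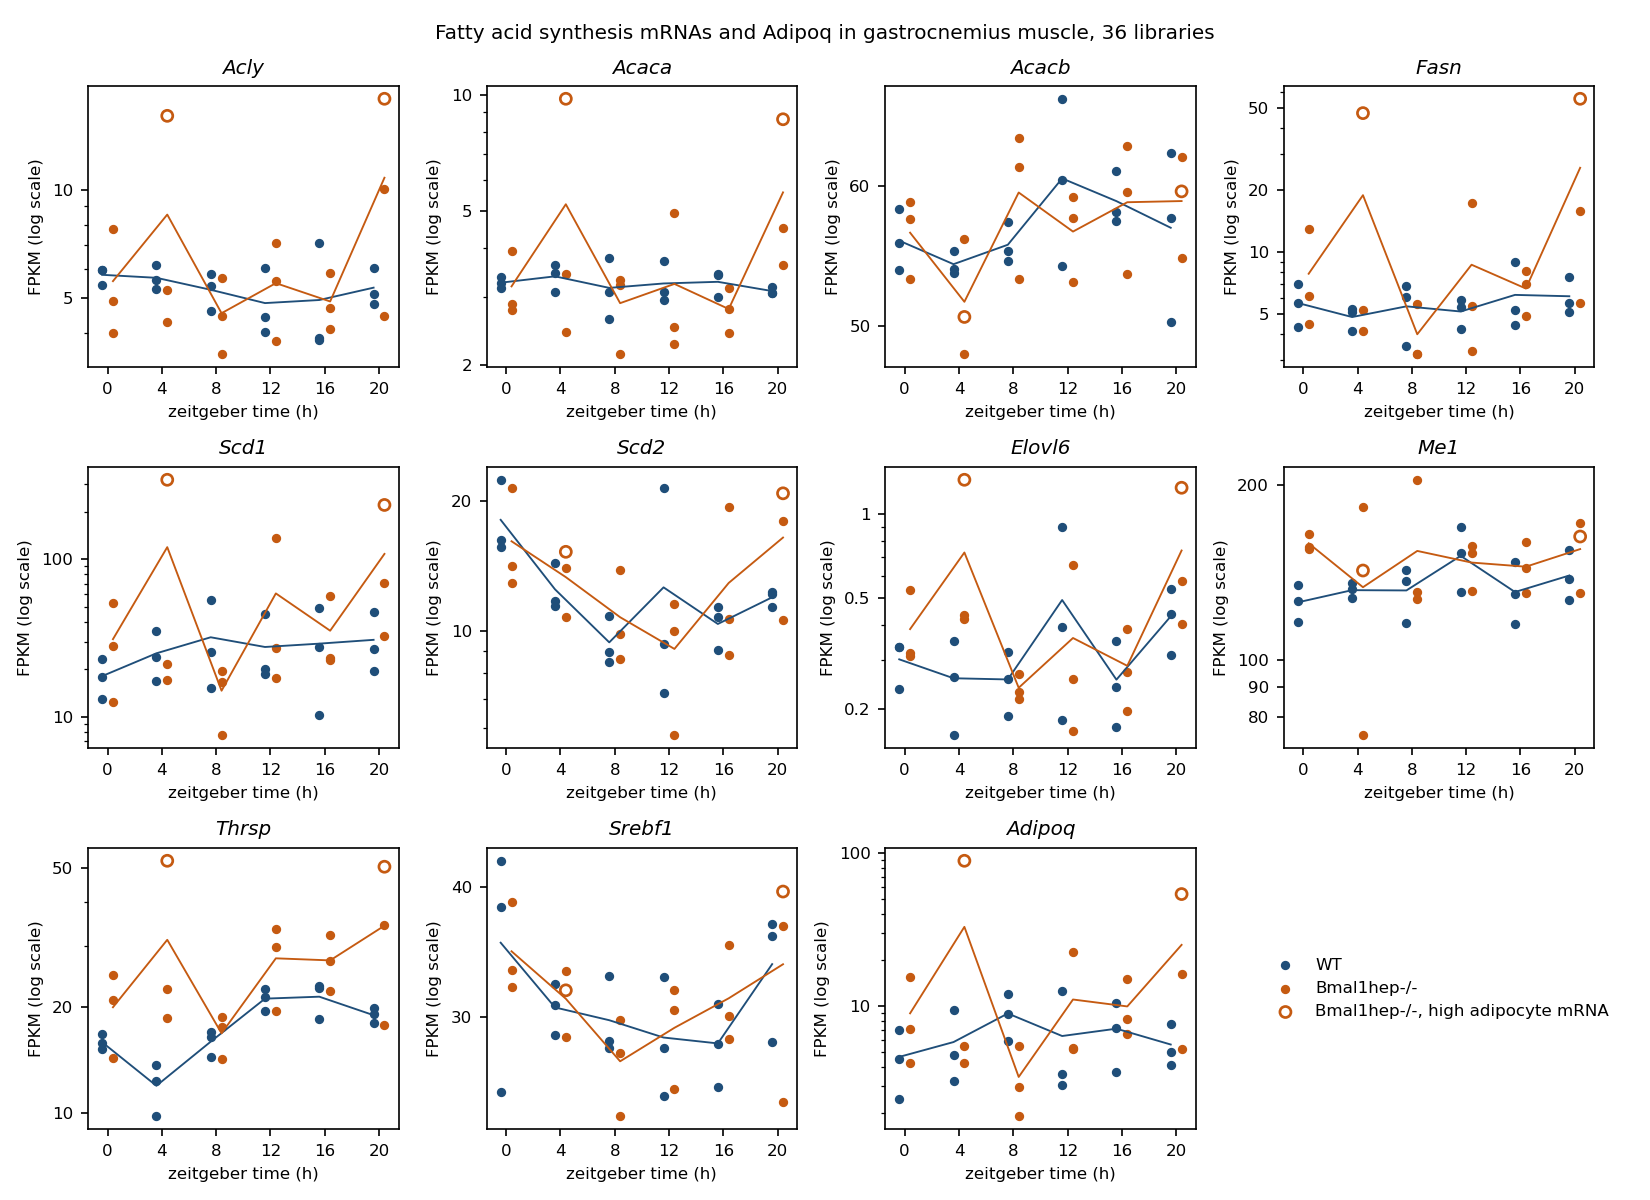
Levels of the 10 members and of Adipoq (FPKM, log scale) by zeitgeber time in hours, 1 point per library, with lines through the arithmetic means of 3 replicates. The open circles are the 2 Bmal1hep-/- libraries of highest adipocyte markers, which hold the highest Acly, Acaca, Fasn, Scd1, Elovl6, Thrsp and Adipoq values, but not the highest Acacb, Scd2, Srebf1 or Me1 values.

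In GENCODE M21 on GRCm38 the desaturase genes lie near each other, Scd2 at chr19:44293674-44306864 on the plus strand and Scd1 at chr19:44394455-44407879 on the minus strand. Acaca (chr11:84129672-84401651) and Acacb (chr5:114146535-114250761) are on different chromosomes, both on the plus strand. Elovl6 lies at chr3:129532355-129638495 on the plus strand, and Srebf1 (chr11:60199089-60222581) and Me1 (chr9:86581371-86695953) on the minus strand.

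Of the 6 members with a called slope on Adipoq, described in the results that follow, 4 had a RefSeq window, and those of Fasn, Acly and Thrsp are given as the 250 bases before the start of the gene, from RefSeq on GRCm38.p6, 5′ to 3′ on the strand of the gene. RefSeq windows were at hand for 8 of the 10 members, and Scd1 and Scd2 are named only. The window of Acaca (chr11:84195188-84195437) lies inside the GENCODE gene, far from its first base, and is not printed. Capitals mark matches to CCAAT, the NF-Y box, or to GGGCGG, the GC box bound by Sp1, on either strand. Fasn lies at chr11:120805846-120824547 on the minus strand and the window shown is chr11:120824548-120824797. Acly lies at chr11:100476353-100528000 on the minus strand, with the window at chr11:100528001-100528250. Thrsp lies at chr7:97412938-97417730 on the minus strand, and the window of its RefSeq start is chr7:97417551-97417800.
Fasn: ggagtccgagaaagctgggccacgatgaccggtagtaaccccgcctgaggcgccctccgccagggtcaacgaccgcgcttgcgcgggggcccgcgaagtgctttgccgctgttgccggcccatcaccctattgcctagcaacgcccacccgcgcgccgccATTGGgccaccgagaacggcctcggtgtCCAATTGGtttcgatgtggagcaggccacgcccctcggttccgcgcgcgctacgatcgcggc
Acly: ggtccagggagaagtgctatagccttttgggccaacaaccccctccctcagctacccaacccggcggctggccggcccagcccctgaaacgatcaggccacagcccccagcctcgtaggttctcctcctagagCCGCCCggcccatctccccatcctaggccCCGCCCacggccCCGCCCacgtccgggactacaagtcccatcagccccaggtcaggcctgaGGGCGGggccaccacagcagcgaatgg
Thrsp: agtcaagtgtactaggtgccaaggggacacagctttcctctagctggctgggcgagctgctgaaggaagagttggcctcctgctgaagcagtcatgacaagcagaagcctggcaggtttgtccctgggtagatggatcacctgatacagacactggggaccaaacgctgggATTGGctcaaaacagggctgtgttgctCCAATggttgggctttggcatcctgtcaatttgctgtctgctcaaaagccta
The 3 windows shown hold matches, but not every member's did: with the 50 bases after the start included, the Acaca window held none of the motifs searched, the Elovl6 window held 1 AGGTCA alone, and the Acacb window, of a gene with no called slope, held 1 CCAAT and 1 AGGTCA. Counted the same way, the Fasn window held 3 matches to CCAAT, 2 of them overlapping on opposite strands, and the Thrsp window held 2. The Acly window held 4 matches to GGGCGG, 1 to CCAAT and 1 to AGGTCA, a nuclear receptor motif. CCAAT occurs in 37.4% and GGGCGG in 35.7% of the 32851 RefSeq windows of the same length, so neither is rare. No window of the 8 members held CACGTG (the canonical E-box, found in 7.15% of windows), TCACNCCAC (a sterol regulatory element, 1.24%) or TTATGTAA (a D-box, 0.938%); that says only that these letters are not in these windows.

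Of the 9 tested members, 6 rose with Adipoq within the groups. The slope on Adipoq, in log2 units of the gene per log2 unit of Adipoq after the 12 group means were taken out, passed limma's test at an adjusted p of 0.05 for Scd1, Fasn, Acly, Acaca, Thrsp and Scd2, all upward; 7.43% of the 10836 genes tested passed it, 4.51% upward and 2.92% downward. The median slope was 0.29 over the 9 members and 0.0004 over all genes. For comparison, the 8 other tested adipocyte markers all passed, with a median slope of 0.75.

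Scd1 was the steepest. It held 319 FPKM in Bmal1hep-/- ZT4 replicate 1, where Adipoq was 89.0, and 221 FPKM in Bmal1hep-/- ZT20 replicate 3, where Adipoq was 53.9, whereas the other 2 replicates of those groups held 17.1 and 21.6 FPKM at ZT4 and 70.7 and 32.6 FPKM at ZT20. Its slope was 1.03 ± 0.06 (SE, 36 libraries, adjusted p = 2.89e-12, limma), so that Scd1 changed in near proportion to Adipoq on the log2 scale. On the linear scale a straight line over the libraries gave 3.74 ± 0.12 FPKM of Scd1 per FPKM of Adipoq and an intercept of 3.86 ± 2.25 FPKM, and without the 2 highest libraries 4.81 ± 0.36 and -3.82 ± 3.05 FPKM. The highest Scd1 value after those 2 libraries, 137 FPKM in Bmal1hep-/- ZT12 replicate 3, came with the third highest Adipoq, 22.5 FPKM.

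Fasn and Acly, the enzymes that make palmitate and its acetyl-CoA, followed with slopes of 0.74 ± 0.06 (adjusted p = 2.28e-09) and 0.38 ± 0.04 (adjusted p = 9.58e-07) in the same limma fit. Fasn held 47.4 and 55.6 FPKM in the 2 libraries of highest Adipoq, while its next highest value was 17.3 FPKM, and Acly held 16.1 and 17.9 FPKM against 10.04 FPKM in the next. Acaca, the carboxylase of the same route, had a slope of 0.31 ± 0.03 (adjusted p = 2.25e-07) and reached 9.75 and 8.63 FPKM against a range of 2.13 to 4.95 FPKM in the other 34 libraries. Thrsp had a slope of 0.29 ± 0.04 (adjusted p = 3.51e-05) and reached 52.3 and 50.3 FPKM against 9.80 to 34.4 FPKM in the others. For these 4 genes both libraries lay above every other library.

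Elovl6 was also highest in the 2 libraries of highest Adipoq: it held 1.33 and 1.24 FPKM there and 0.161 to 0.8995 FPKM in the other 34. In a fit with no filter on level its slope was 0.17 ± 0.03 (adjusted p = 0.000247, limma, 8.62% of genes called), which the pseudocount of 1 makes smaller than the change in FPKM. Without the 2 libraries its Pearson's r with Adipoq, also with no filter, was 0.43 and not called (adjusted p = 0.671 by permutation). Spearman's rho over all 36 was 0.36 and not called (adjusted p = 0.476 by permutation).

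The other 3 tested members did not move with Adipoq. The slope was 0.033 ± 0.038 for Srebf1 (adjusted p = 0.651, limma), 0.024 ± 0.049 for Me1 (adjusted p = 0.81) and -0.0035 ± 0.022 for Acacb (adjusted p = 0.945). In the 2 libraries of highest Adipoq, Srebf1 held 31.8 and 39.6 FPKM, Me1 held 143 and 163, and Acacb held 50.6 and 59.6, all inside the range of the other 34 libraries. Among the members the 3 highest of the table, Me1, Acacb and Srebf1, were thus those with no slope called. Srebf1 overlaps Rai1 on the opposite strand and Me1 overlaps the antisense gene A330041J22Rik in GENCODE M21; whether the counting used strand is not stated, and those neighbours ran from 3.17 to 6.08 FPKM and from 0.116 to 1.05 FPKM.

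**Figure D2:**
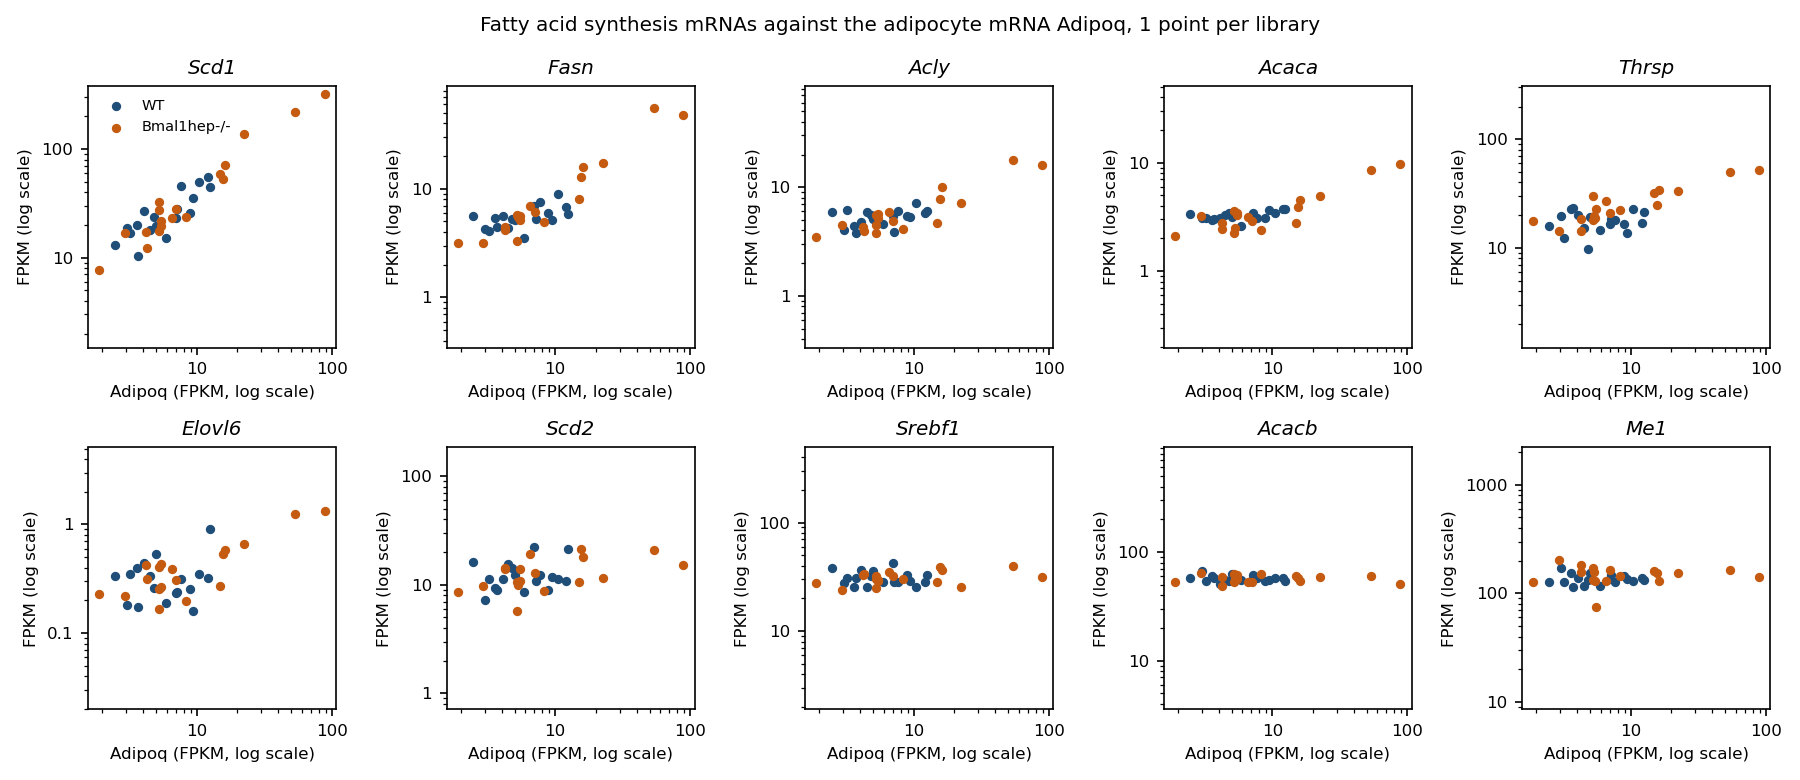
Each member against Adipoq (both FPKM on log scales), 1 point per library, WT in blue and Bmal1hep-/- in orange; each vertical axis spans the same fold range around the median of the gene. Scd1 climbs along the whole range of Adipoq. Fasn, Acly, Acaca, Thrsp and Elovl6 hold their highest values at its upper end, Scd2 has a weaker r of 0.41, and Srebf1, Acacb and Me1 lie flat.

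The 2 libraries carried part of this, and 4 of the 6 slopes were called without them. With both left out, 0.314% of genes passed the test. Scd1 had a slope of 1.10 ± 0.09 (adjusted p = 4.50e-08, limma, 34 libraries), Fasn 0.60 ± 0.08 (adjusted p = 0.000256), Acaca 0.22 ± 0.05 (adjusted p = 0.0231) and Acly 0.30 ± 0.06 (adjusted p = 0.0276). Thrsp fell out of the calls with 0.21 ± 0.06 (adjusted p = 0.194), and Scd2 did so with a larger slope than before, 0.34 ± 0.09 (adjusted p = 0.12). A fit on the mean of the other 9 adipocyte markers in place of Adipoq, chosen after seeing the data, called the same 6 members and 6.35% of genes. Straight lines fitted to the 34 libraries came to 55.6 FPKM of Fasn at the Adipoq level of Bmal1hep-/- ZT4 replicate 1, where 47.4 was measured, and to 34.4 at that of Bmal1hep-/- ZT20 replicate 3, where 55.6 was measured. For Acaca the same lines came to 10.2 and 7.21 FPKM, beside 9.75 and 8.63 measured, and for Scd1 to 425 and 256 FPKM, beside 319 and 221. For Acly they came to 20.2 and 13.8 FPKM, beside 16.1 and 17.9 measured. The lines lay above both measured values for Thrsp, at 85.9 and 57.7 FPKM beside 52.3 and 50.3. They did so too for Scd2, at 33.8 and 24.6 FPKM beside 15.3 and 20.8.

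**Figure D3:**
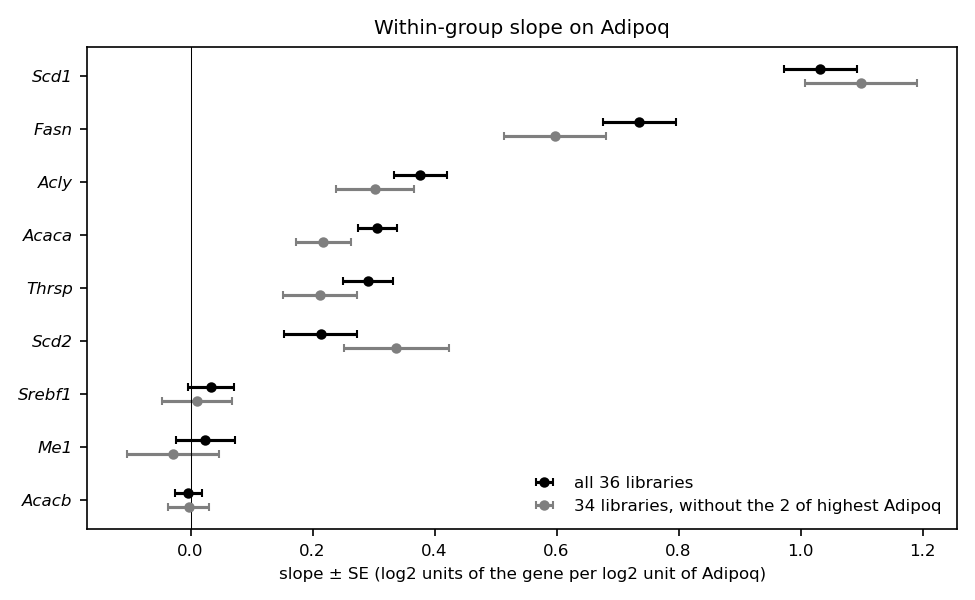
Slope of each tested member on Adipoq (log2 units per log2 unit, points) with its SE (bars), in all 36 libraries (black) and without the 2 libraries of highest Adipoq (grey). Scd1 and Fasn stand at 1.03 and 0.74 with all libraries, and Srebf1, Me1 and Acacb lie within about 1 SE of 0.

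The plain correlation with Adipoq over the 36 libraries was also highest for Scd1 and Fasn. Pearson's r of log2(FPKM + 1) was 0.95 for Scd1 (Spearman's rho 0.88), 0.91 for Fasn (0.78), 0.84 for Acaca (0.55), 0.83 for Acly (0.57) and 0.75 for Thrsp (0.51), each past an adjusted p of 0.05 by permutation over the 10836 genes, of which 3.22% passed. The unadjusted p was 1e-05, the smallest that 100000 permutations can give, for Scd1, Fasn, Acaca and Acly. By Spearman's rho 2 members were called, Scd1 and Fasn (adjusted p = 0.00493 each, permutation), and Acly (0.0774), Acaca (0.0981) and Thrsp (0.176) were not. Pearson's r was not called for Scd2 (r 0.41, adjusted p = 0.169 by permutation), Srebf1 (0.20), Me1 (0.09) or Acacb (-0.11). Without the 2 libraries farthest from the median of Adipoq, r was 0.91 for Scd1 and 0.81 for Fasn, both called where 0.286% of genes were, and 0.60 for Acly, 0.59 for Acaca and 0.53 for Thrsp, none called (adjusted p = 0.0591, 0.102 and 0.247 by permutation).

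Within WT, where Adipoq ran from 2.47 to 12.4 FPKM, r was 0.84 for Scd1 (adjusted p = 0.0271 by permutation, 18 libraries, 0.0554% of genes called), 0.57 for Fasn and 0.11 for Thrsp, and only Scd1 was called among the members. Within Bmal1hep-/-, where Adipoq ran from 1.90 to 89.0 FPKM, r was 0.97 for Scd1, 0.96 for Fasn, 0.91 for Thrsp, 0.90 for Acly and 0.89 for Acaca, all 5 called where 1.85% of genes were. Without the same 2 libraries the Bmal1hep-/- values were 0.95, 0.92, 0.80, 0.74 and 0.68 in that order, and Scd1 and Fasn were called (0.0923% of genes). A fit with 1 slope per genotype, chosen after seeing the data, gave Fasn 0.33 ± 0.11 in WT and 0.83 ± 0.05 in Bmal1hep-/- (difference 0.50 ± 0.12, adjusted p = 0.759, limma) and Thrsp 0.048 ± 0.080 and 0.35 ± 0.04 (difference 0.30 ± 0.09, adjusted p = 0.872). The difference between genotypes was called for 0.0% of genes, so no slope was shown to differ between them. Unadjusted, the limma p was 0.00028 for Fasn, 0.00213 for Thrsp, 0.00303 for Acaca and 0.0431 for Acly. The share of all genes with so low an unadjusted p was not counted. The Acaca slope was 0.12 ± 0.06 in WT and 0.35 ± 0.03 in Bmal1hep-/-, and that of Acly was 0.20 ± 0.09 and 0.42 ± 0.05.

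Scd2, a desaturase prominent in brain and nerve, moved with markers of another cell type as well. In WT ZT12 replicate 1, the library of highest Schwann cell and nerve markers, Scd2 held 21.4 FPKM while the other 2 replicates of that group held 7.20 and 9.34. That library also held the highest Adipoq of WT, 12.4 FPKM, and the highest adipocyte marker sum of WT, 545 FPKM. In Bmal1hep-/- ZT16 replicate 3, where the nerve markers were highest in that genotype at 294 FPKM, it held 19.3 FPKM beside 10.7 and 8.80. Its slope on the mean of the 8 Schwann cell and nerve markers, a fit chosen after seeing the data, was 0.47 ± 0.11 (adjusted p = 0.0448, limma, 36 libraries), and it was the only one of the 9 tested members called, where 0.406% of genes were. The part of nerve or fat cells in the level of Scd2 was not tested.

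No member was called as different between the genotypes over all times. The mean of the 6 differences Bmal1hep-/- minus WT was called for 0 of 9 members and for 0.0% of 10837 genes at an adjusted p of 0.05 (limma), and 1 member, Thrsp, was under an unadjusted p of 0.05, as were 8.37% of genes. Of the 9 estimates, 8 were above 0, with a median of 0.12 on the log2 scale against -0.003 over all genes; Adipoq itself stood at 0.55 ± 0.34 (adjusted p = 0.711). The intervals set what could have been missed: for Acacb the difference was -0.0019 ± 0.037 (95% interval -0.08 to 0.07), for Srebf1 0.0082 ± 0.064 (-0.12 to 0.14) and for Me1 0.12 ± 0.08 (-0.05 to 0.29). For Scd1 (0.51 ± 0.37, -0.25 to 1.26) and Fasn (0.47 ± 0.27, -0.08 to 1.03) a difference of 1 on the log2 scale was inside the interval.

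Thrsp came nearest to a difference between genotypes. In WT it ran from 9.80 to 23.1 FPKM (median 17.5) and in Bmal1hep-/- from 14.3 to 52.3 FPKM (median 22.4), so the genotypes overlapped. The difference over all times was 0.48 ± 0.12 (95% interval 0.24 to 0.72, unadjusted p = 0.000313, adjusted p = 0.212, limma). The group mean was higher in Bmal1hep-/- at 6 of 6 times, but how many of all genes kept 1 direction so was not counted. At ZT8 the means were 16.9 ± 2.32 FPKM in Bmal1hep-/- and 16.0 ± 1.35 in WT (SD, n = 3). The highest means, at ZT4 (31.1 ± 18.4) and ZT20 (34.2 ± 16.2) in Bmal1hep-/-, include the 2 libraries of highest Adipoq. With Adipoq as a covariate the difference over all times was 0.32 ± 0.07 (adjusted p = 0.046). Thrsp was then the only member called, where 0.397% of genes were called. Over the 11 alternatives its adjusted p ran from 0.0125, with array weights, to 0.288. The covariate fits take 1 slope on Adipoq for both genotypes. Fitted per genotype, the Thrsp slope was 0.048 ± 0.080 in WT and 0.35 ± 0.04 in Bmal1hep-/-. With Adipoq as a covariate the estimates of Scd1, Scd2, Acaca, Acly and Srebf1 turned to -0.06, -0.06, -0.08, -0.06 and -0.01, and that of Fasn shrank to 0.07 ± 0.11.

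**Figure D4:**
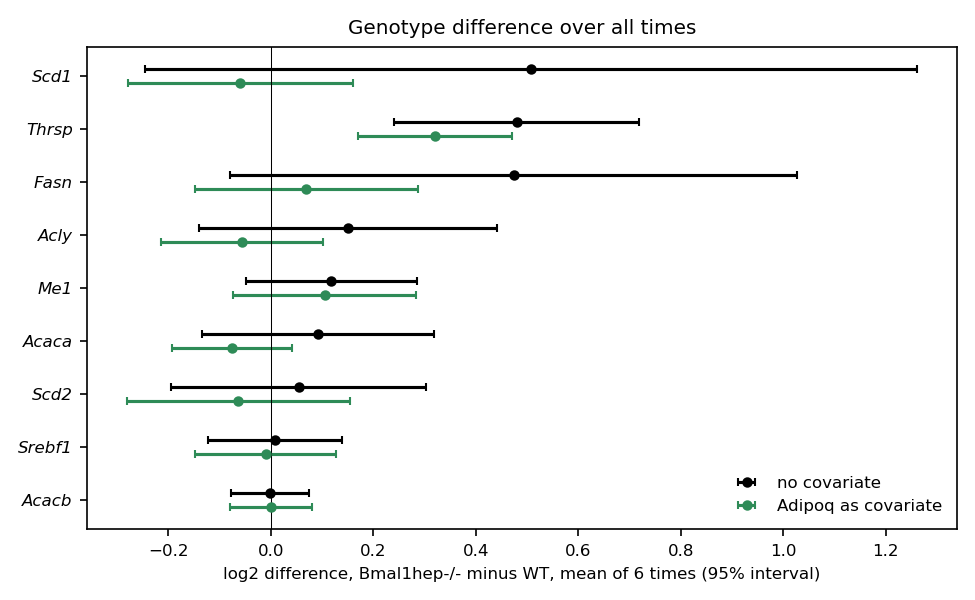
Difference between genotypes (log2, Bmal1hep-/- minus WT, mean of 6 times) of each tested member, with 95% intervals, without (black) and with (green) Adipoq as a covariate. The Thrsp interval lies above 0 in both fits, and the wide intervals of Scd1 and Fasn narrow around 0 once Adipoq is in the fit.

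At single times 0 of 9 members and 0.0% of genes were called at each of the 6 times (limma). Under an unadjusted p of 0.05 there were 4 members at ZT20 (12.6% of genes) and 1 at ZT4 (9.06%). There were 0 at ZT0, ZT8, ZT12 and ZT16, where 2.2%, 3.08%, 7.25% and 2.45% of genes were under it. At ZT4 Thrsp held 9.80, 13.8 and 12.4 FPKM in WT and 52.3, 18.6 and 22.6 FPKM in Bmal1hep-/-. These groups did not overlap, with or without the replicate of 52.3 FPKM that also held the highest Adipoq. How many of all genes separated so at ZT4 was not counted. The Thrsp difference at ZT4 was 1.18 ± 0.29 (log2, unadjusted p = 0.000311, adjusted p = 0.283, limma), 0.83 ± 0.18 with Adipoq as a covariate (adjusted p = 0.0376, 0.6% of genes called) and 0.74 ± 0.22 without the 2 libraries of highest Adipoq (adjusted p = 0.11). Over the 11 alternatives the adjusted p ran from 0.0376 to 0.303.

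At ZT20 the Bmal1hep-/- means were the higher for Fasn (25.7 ± 26.4 FPKM, SD, n = 3, against 6.10 ± 1.28), Acly (10.8 ± 6.76 against 5.34 ± 0.656) and Acaca (5.58 ± 2.68 against 3.10 ± 0.0693). The 3 Fasn values were 15.8, 5.68 and 55.6 FPKM, in the same replicate order as Adipoq at 16.1, 5.24 and 53.9, and the WT values of 5.11, 7.54 and 5.66 overlapped with them. The Acaca values were 3.18, 3.06 and 3.06 FPKM in WT and 4.50, 3.61 and 8.63 in Bmal1hep-/-. These did not overlap, but how many of all genes separated so at ZT20 was not counted. The unadjusted p was 0.0437 for Fasn, 0.0466 for Acly, 0.0327 for Acaca and 0.021 for Thrsp, and the adjusted p was at least 0.372 (limma). The genotype difference itself changed with time for 0 of 9 members and 0.0% of genes, with 4.64% of genes and none of the members under an unadjusted p of 0.05 (smallest p, 0.121 for Thrsp).

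Over the day, 1 member had a called rhythm. A cosine of 24 h in the mean of both genotypes was called for Scd2, 1 of 9 members, and for 12.4% of genes (limma); 3 members, Scd2, Srebf1 and Thrsp, and 23% of genes were under an unadjusted p of 0.05. Scd2 had an amplitude of 0.34 ± 0.08 (log2, from the mean to the peak) and a peak at ZT 23.1 ± 0.94 h (adjusted p = 0.0141). From ZT0 to ZT20 in steps of 4 h, its WT means were 18.1 ± 3.72, 12.5 ± 1.60, 9.43 ± 1.23, 12.6 ± 7.63, 10.4 ± 1.22 and 12.0 ± 0.516 FPKM (SD, n = 3). In Bmal1hep-/- they were 16.1 ± 4.57, 13.3 ± 2.32, 10.8 ± 2.75, 9.11 ± 3.00, 12.9 ± 5.61 and 16.5 ± 5.27 FPKM at the same times. WT was highest at ZT0 and lowest at ZT8, and Bmal1hep-/- was highest at ZT20 and ZT0 and lowest at ZT12. The call held without the 2 libraries of highest Adipoq (0.32 ± 0.09, adjusted p = 0.0297) and with Adipoq as a covariate (0.32 ± 0.08, adjusted p = 0.0111), but was lost without the 6 libraries that stood apart (0.27, adjusted p = 0.0641); over the 11 alternatives the adjusted p ran from 0.00656 to 0.0641. Leaving out single libraries kept the call, with an adjusted p from 0.000293, without the nerve-rich WT ZT12 replicate 1, to 0.0369.

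Taken by genotype, 0 of 9 members were called as rhythmic in WT, where 6.03% of genes were, and 0 of 9 in Bmal1hep-/-, where 5.47% were (limma; 1 member in each was under an unadjusted p of 0.05, Thrsp in WT and Scd2 in Bmal1hep-/-). Scd2 had amplitudes of 0.30 ± 0.12 in WT (adjusted p = 0.312) and 0.39 ± 0.12 in Bmal1hep-/- (adjusted p = 0.113). Without WT ZT12 replicate 1, the library rich in nerve markers, the WT amplitude was 0.44 (adjusted p = 0.0211), and the adjusted p in Bmal1hep-/- was 0.0338.

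Thrsp was lowest at ZT4 and highest at ZT12 and ZT16 in WT, with a rhythm whose call depended on the fit. Its WT values were lowest at ZT4 (9.80, 13.8 and 12.4 FPKM) and highest at ZT12 (21.4, 19.5 and 22.6) and ZT16 (18.6, 22.7 and 23.1). These times were named after their values were seen. The WT amplitude was 0.37 ± 0.13 with a peak at ZT 15.6 ± 1.28 h (adjusted p = 0.172, limma), and the Bmal1hep-/- amplitude was 0.23 ± 0.13 with a peak at ZT 18.1 ± 2.04 h (adjusted p = 0.557). The WT rhythm was called with Adipoq as a covariate (0.36 ± 0.07, adjusted p = 0.00434, 6.24% of genes called), without the 2 libraries of highest Adipoq (0.37 ± 0.08, adjusted p = 0.0101), without Bmal1hep-/- ZT4 replicate 1 alone (adjusted p = 0.0359) and in the 18 WT libraries alone (adjusted p = 0.000152), and over 12 alternatives the adjusted p ran from 0.000152 to 0.257. The WT amplitude stayed between 0.36 and 0.39 over those alternatives. In Bmal1hep-/- the rhythm was called without ZT4 replicate 1 (amplitude 0.39, adjusted p = 0.045) and was lower without ZT20 replicate 3 (0.15, adjusted p = 0.846), and over its 12 alternatives the adjusted p ran from 0.0776 to 0.856.

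In the mean of both genotypes Thrsp had an amplitude of 0.29 ± 0.09 and a peak at ZT 16.5 ± 1.17 h (adjusted p = 0.0716, limma). It was called without the 2 libraries of highest Adipoq (0.34 ± 0.06, adjusted p = 0.000363), with Adipoq as a covariate (0.25 ± 0.05, adjusted p = 0.00315, 13.1% of genes called), without Bmal1hep-/- ZT4 replicate 1 (0.37, adjusted p = 0.000875) and without Bmal1hep-/- ZT20 replicate 2 (0.32, adjusted p = 0.0333); over the 11 alternatives the adjusted p ran from 0.000363 to 0.112.

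The rhythm of Srebf1 was not called. Its mean over both genotypes had an amplitude of 0.14 ± 0.04 with a peak at ZT 22.7 ± 1.16 h (adjusted p = 0.0651, limma), and over the 11 alternatives the adjusted p ran from 0.0189 to 0.128. The WT means were highest at ZT0 (35.4 ± 8.83 FPKM, SD, n = 3) and lowest at ZT16 (28.3 ± 2.59), and the Bmal1hep-/- means were highest at ZT0 (34.7 ± 3.49) and lowest at ZT8 (27.2 ± 2.89). The 3 WT values at ZT0 were 25.4, 38.3 and 42.3 FPKM, so the replicates at ZT0 spread more widely than the group means did over the day. In the mean of both genotypes, the adjusted p was 0.0137 without WT ZT0 replicate 1, 0.0408 without WT ZT12 replicate 1, 0.0477 without WT ZT20 replicate 2 and 0.0107 without Bmal1hep-/- ZT20 replicate 2, and leaving out any of the other 32 libraries gave no call, with an adjusted p of up to 0.141. Over the 36 libraries Srebf1 correlated with Scd2 at r of 0.61, with Fasn at 0.32 and with Acacb at -0.36, as a description across libraries that share time and genotype.

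**Figure D5:**
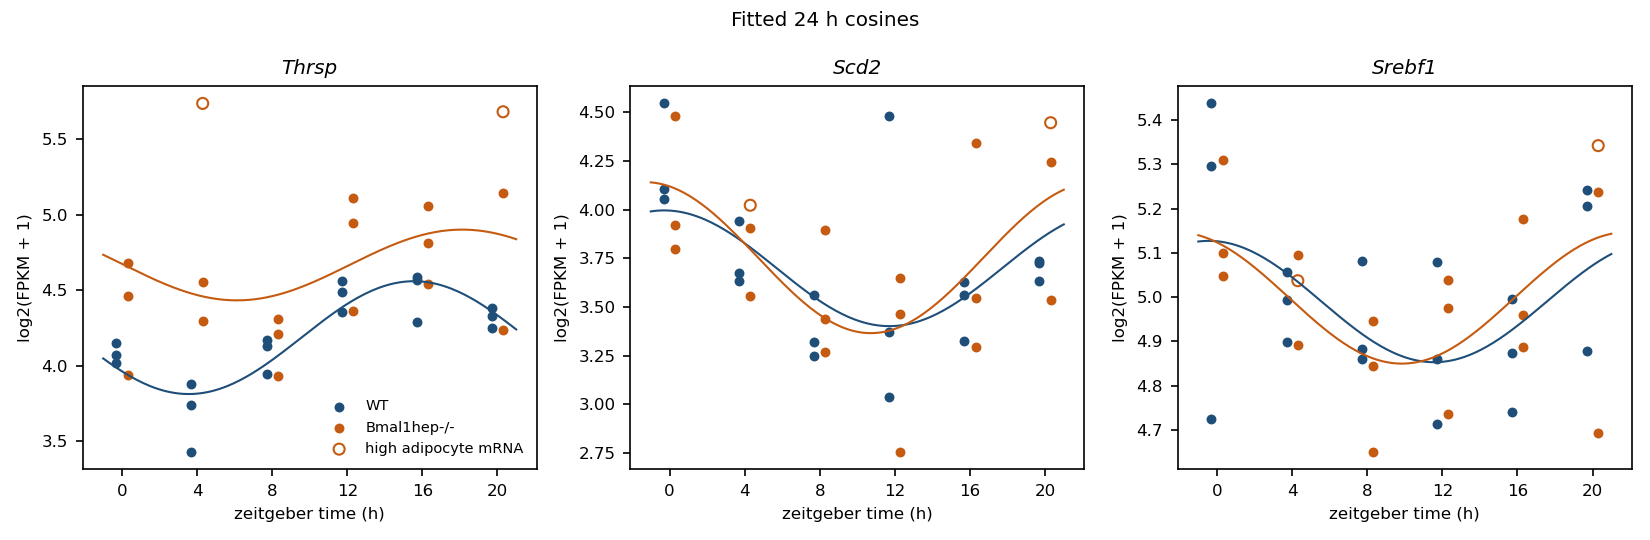
Thrsp, Scd2 and Srebf1 as log2(FPKM + 1) against zeitgeber time in hours, 1 point per library, with the 24 h cosines fitted per genotype; the open circles are the 2 Bmal1hep-/- libraries of highest adipocyte markers. Scd2 and Srebf1 peak near ZT0 in both genotypes, and Thrsp peaks near ZT16 in WT with a cosine that lies lower than that of Bmal1hep-/-.

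No rhythm was called for the other members in the reported fit. Averaged over WT and Bmal1hep-/-, the amplitude was 0.34 ± 0.19 for Fasn (adjusted p = 0.505), 0.28 ± 0.26 for Scd1 (adjusted p = 0.791), 0.18 ± 0.10 for Acly, 0.11 ± 0.08 for Acaca, 0.062 ± 0.026 for Acacb (peak at ZT 15.1 h, adjusted p = 0.259; 0.0304 with the trend with transcript length removed, from 0.0304 to 0.451 over 11 alternatives) and 0.054 ± 0.056 for Me1. The F test of any difference between times called 0 of 9 members in WT (3.08% of genes) and 0 of 9 in Bmal1hep-/- (3.09%; limma). Under an unadjusted p of 0.05 there were 0 members in WT (11.4% of genes) and 1 in Bmal1hep-/-, Thrsp (15.2%). A difference in rhythm between genotypes was called for 0 of 9 members and 0.0% of genes (4.01% and none of the members under an unadjusted p of 0.05; limma).

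Genes on either side of the pathway were read from lists by function. Over all genes 7.43% had a called slope on Adipoq and 12.4% were called as rhythmic over both genotypes; each list's counts stand against these shares. Of 8 genes that supply acetyl-CoA and NADPH, 5 had a called slope on Adipoq, all upward, and the 4 of smallest p were Slc25a1, the mitochondrial citrate carrier (0.60 ± 0.06, adjusted p = 4.34e-08), Tkt, transketolase (0.38 ± 0.04), the pentose phosphate dehydrogenases G6pdx (0.25 ± 0.05) and Pgd (0.16 ± 0.03). The list's median slope was 0.14. Idh1, cytosolic isocitrate dehydrogenase, was the 1 of 8 with a called rhythm in the mean of both genotypes (amplitude 0.25 ± 0.05, peak at ZT 10.1 h, adjusted p = 0.00168). The summed level of all 8 was 389 and 370 FPKM in the 2 libraries of highest Adipoq, inside the range of the other libraries; Mdh1, a cytosolic malate dehydrogenase with no called slope, had a median of 261 FPKM in that sum.

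Of 14 elongation and desaturation genes 10 were tested, and 6 had a called slope (7.43% of all genes), with Hacd2 (0.22 ± 0.03), Fads3, Hsd17b12 and Fads1 upward and 2 downward. The latter, named after their values were seen, were Hacd1, the muscle form of the dehydratase (-0.20 ± 0.05), and Tecr (-0.10 ± 0.03), the reductase of elongation. Elovl5 (peak at ZT 21.2 h) and Hacd3 (peak at ZT 19.6 h) were called as rhythmic in the mean of both genotypes. Of 14 regulators of lipogenic transcription, Srebf2 (0.14 ± 0.04) and Insig1 (0.11 ± 0.03), both of the sterol-sensing branch, had called slopes, and 3 of 14 were called as rhythmic (12.4% of all genes): Mid1ip1, the paralog of Thrsp (amplitude 0.80 ± 0.07, peak at ZT 14.1 ± 0.35 h, adjusted p = 2.12e-09), Insig1 (0.27 ± 0.05, peak at ZT 2.01 h) and Srebf2 (0.25 ± 0.05, peak at ZT 0.353 h). The Mid1ip1 rhythm was called within each genotype (adjusted p = 1.04e-05 and 6.14e-06).

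Of 9 genes that control or use malonyl-CoA, Mlycd, malonyl-CoA decarboxylase (amplitude 0.23 ± 0.05, peak at ZT 9.02 h, adjusted p = 0.00207, limma), and Cpt1a (0.31 ± 0.05, peak at ZT 8.33 h, adjusted p = 4.96e-05), were called as rhythmic, and Cpt1a had the 1 called slope (0.12 ± 0.04). Cpt1a encodes a carnitine palmitoyltransferase that malonyl-CoA inhibits, and so does Cpt1b of the same list. The medians were 2.83 FPKM for Cpt1a and 139 FPKM for Cpt1b. Of 7 tested genes of glycerolipid assembly 3 were called as rhythmic, where 12.4% of all genes were: Pnpla3 (amplitude 1.09 ± 0.10, peak at ZT 20.5 h), Lpin1 (0.19 ± 0.04, ZT 23.6 h) and Dgat2 (0.48 ± 0.10, ZT 13.4 h), and Agpat2, Dgat2 and Pnpla3 had called slopes, all upward, where 7.43% of all genes were called. Of 8 genes of mitochondrial fatty acid synthesis, a separate pathway, 0 were called as rhythmic in the mean of both genotypes (0 under an unadjusted p of 0.05, limma) and 1 had a called slope, Mcat, downward (-0.11 ± 0.03). No gene of these 6 lists was called between genotypes over all times (limma). Of their tested genes 5 were under an unadjusted p of 0.05, as were 8.37% of all genes.

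The genes most like each member over the 36 libraries, by Pearson's r of log2(FPKM + 1), are given as a description with no p. Fasn was nearest to Tkt (0.95), Acly and Scd1, and Acly and Acaca to Fasn and to each other. Scd1 was nearest to Adipoq itself (0.95), then Prkar2b, a protein kinase A subunit abundant in fat, and Fasn. Thrsp was nearest to Slc25a10 (0.82), the mitochondrial dicarboxylate carrier, and had no member among its 3 nearest genes. Elovl6 was nearest to Tkt (0.88), then Acaca (0.84). The 3 nearest genes of the others held no member either, and the first was Mboat1 for Scd2 (0.73), Larp4 for Acacb (0.78), Itpk1 for Srebf1 (0.71) and Rab2a for Me1 (0.69). Acaca and Acacb, the 2 carboxylases, had an r of -0.02 with each other.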

How the data were processed

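Polyadenylated RNA was captured from column-purified total RNA and copied from random hexamers, per the labels' protocols. The authors deposited FPKM per gene symbol in 1 table for all 36 libraries; the submitters' processing notes name FastQC 0.11.8, STAR and the builds mm10 and GRCm39, and the tool that computed FPKM, its annotation, its use of strand and any scaling are not given in the labels or files. Values were taken as log2(FPKM + 1), so changes of low genes are understated, and the 10837 genes whose mean was 1 FPKM or more were tested with limma 3.58.1 in R 4.3.3 (eBayes with trend and robust), with Benjamini-Hochberg adjustment over all of them and a threshold of 0.05. The fits held 12 group means (24 residual degrees of freedom), a mean, cosine and sine of 24 h per genotype (30), or the group means with Adipoq (23). Correlations used 100000 two-sided permutations for every gene. The members, lists, libraries left out and tests were chosen with earlier results of these data known. Relative depth came from 6015 genes of mean FPKM below 0.3, with 86.2% of library pairs within 0.05 (log2) of the combined depths; no 2 libraries were identical. All 10 members are named; of each other list up to 4 genes of smallest p per test are, and for each member the 3 genes of highest r were found. The fits were tested on simulated data. Gene positions, lengths and overlaps are from GENCODE M21 on GRCm38, which may not be the build behind the FPKM. The replicates are labelled biological, and whether each is 1 animal is not stated. Alternatives were a pseudocount of 0.1, no filter, a filter at 5 FPKM, median-of-ratios and quantile scaling, a block for the replicate number, array weights, Adipoq as a covariate, fits on fewer libraries or 1 genotype, and, chosen after seeing the data, other adipocyte markers and removal of a trend with transcript length. Python 3.11.15, numpy 2.4.6, pandas 2.3.3, scipy 1.17.1 and matplotlib 3.10.9 were used. Same-numbered replicates deviated together little more than others (median r of 0.042, 0.015 and 0.008 against -0.009). Of 36 libraries, 13 deviated most like those of their own number. The labels state no pairing, and this check cannot settle whether the numbers pair samples.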

Additional observations from a re-analysis of the deposited data

How the results depend on the processing

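Over the alternatives that leave out no single library, 1220 of 1328 values were taken as unchanged. An estimate had to keep its side of the threshold, and its direction where it had one. A count of members or genes called had only to be equal or not far apart. A fall from 6 to 4 members with a called slope on Adipoq thus stood among the unchanged. Counts of members called among 9 follow, with the share of all genes called in brackets. Over all times it was 1 with array weights (1.72%) and 1 with Adipoq as a covariate (0.397%), against 0. At ZT4 it was 1 with Adipoq as a covariate (0.6%), at ZT8 2 with array weights (19.4%), and for genotype by time 1 with array weights (22.1%). Between times it was 1 in WT with array weights (15.2%) and with Adipoq as a covariate (3.52%), and 6 in Bmal1hep-/- with array weights (69.3%), whose estimation stopped before convergence. For the rhythm in WT it was 1, Thrsp, with array weights (12.8%), Adipoq as a covariate (6.24%), each genotype alone (9.09%), and without the 2 (6.29%) or the 6 (6.55%) libraries that stood apart. For the mean of both genotypes it was 2 with quantile normalization (12.9%), Adipoq as a covariate (13.1%), the length trend removed (14.5%, Scd2 and Acacb) or without the 2 libraries (12.2%), and 3 with array weights (16.8%). For the correlation with Adipoq it was 2 without the 2 farthest libraries (0.286%) and 1 in WT alone (0.0554%). Leaving out 1 library at a time gave 0 to 1 members in WT, 0 to 1 in Bmal1hep-/- and 1 to 3 in their mean. The cause was not tested.

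Estimates that changed sign were small after the change, though over all times Scd1 had stood at 0.51 and Acly at 0.15 in the reported fit. Over all times Acaca was -0.040 without the 2 libraries and -0.016 without the 6, Acly -0.0078 without the 2, and Srebf1 -0.015 and -0.042; with Adipoq as a covariate Scd1 was -0.060, Scd2 -0.063, Acaca -0.075, Acly -0.056 and Srebf1 -0.010. Acacb was 0.00097 with median-of-ratios, 0.0038 with quantile scaling, 2.6e-05 with Adipoq as a covariate, 0.029 without the 6 and 0.022 with the length trend removed. The slope of Acacb was 0.023 with quantile scaling and that of Me1 -0.029 and -0.094 without the 2 and the 6; in WT alone r was -0.15 for Srebf1 and -0.048 for Me1. Leaving out 1 library at a time, Acacb ran from -0.016 to 0.011 and Srebf1 from -0.027 to 0.041 between genotypes, the slopes of Acacb, Srebf1 and Me1 from -0.013 to 0.0071, -0.0032 to 0.051 and -0.029 to 0.083, and r of Acacb from -0.18 to 0.054.

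The slope of Scd2 was not called with the replicate block (0.18, adjusted p = 0.0826, limma; 5 members called, 450 genes against 805), for which the labels state no pairing, with array weights (adjusted p = 0.104), with the length trend removed (0.0717) or without any of WT ZT12 replicate 1 (0.0506), Bmal1hep-/- ZT12 replicate 3 (0.0585), Bmal1hep-/- ZT20 replicate 2 (0.0645) or Bmal1hep-/- ZT20 replicate 3 (0.0641). Without Bmal1hep-/- ZT4 replicate 1 alone, 107 genes had a called slope, and without both libraries of highest Adipoq, 34. Without the 6 libraries Acaca (0.19, adjusted p = 0.0539) and Thrsp (0.26, 0.117) were not called. Without Bmal1hep-/- ZT20 replicate 1, 332 genes and none of the members were called between genotypes at ZT20. Relative depth alone was known, so levels near that of Elovl6 limit what could be tested.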
